A study of Mus musculus with 10 samples.

Results

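Macrophages given a low dose of a Toll-like receptor 4 (TLR4) ligand for 2 h were compared with macrophages left untreated. The phagocytes were grown from the bone marrow of C57BL/6J mice with macrophage colony-stimulating factor (M-CSF), and the ligand was Kdo2-lipid A, the part of bacterial lipopolysaccharide that TLR4 recognises. The comparison holds 4 of the 10 libraries of polyadenylated RNA in the series. Of these 4, 2 received 0.03 nM Kdo2-lipid A for 2 h and 2 received none and were taken at 0 h, with a library of each kind in experiment 1 and in experiment 2. Libraries at 0.03 nM for 1 h and at 10 nM for 2 h, again 2 each, are set beside them. All came from the same strain and culture method, and the labels give neither the age nor the number of mice, nor whether their marrow was pooled. No untreated group was harvested at 2 h, so the effect of the ligand and that of time or handling cannot be told apart in the comparison with untreated cells. Of 23284 genes in the count table, the 12918 with enough counts over the groups were tested.

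TLR4 sits at the surface of macrophages with the co-receptor CD14 and signals through the adaptor MyD88 to NF-kB and the MAP kinases. Through the adaptor TRIF it signals to interferon regulatory factors and interferon beta. NF-kB is held in the cytoplasm by inhibitor proteins of the IkB family until these are degraded. Its target genes include those of chemokines and cytokines and those of its own inhibitors, which limit the response.

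The promoters of 5 genes that rose are printed here because the rises described below were led by Irg1, Cxcl1 and Cxcl2 and by the NF-kB inhibitor genes. Each is the 250 bases before the first listed RefSeq transcript start on GRCm38.p6, 5′ to 3′ on the gene's own strand, with matches to the NF-kB core GGNNNTTCC, or GGAANNNCC on the opposite strand, in capitals. Irg1 is listed there under its present symbol Acod1.
Irg1, chr14:103046762-103047011, plus strand: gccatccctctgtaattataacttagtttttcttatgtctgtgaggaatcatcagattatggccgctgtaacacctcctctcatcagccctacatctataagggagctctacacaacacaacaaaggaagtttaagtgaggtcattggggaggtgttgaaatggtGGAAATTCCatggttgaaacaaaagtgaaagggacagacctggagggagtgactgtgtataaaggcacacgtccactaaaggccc
Cxcl1, chr5:90890995-90891244, plus strand: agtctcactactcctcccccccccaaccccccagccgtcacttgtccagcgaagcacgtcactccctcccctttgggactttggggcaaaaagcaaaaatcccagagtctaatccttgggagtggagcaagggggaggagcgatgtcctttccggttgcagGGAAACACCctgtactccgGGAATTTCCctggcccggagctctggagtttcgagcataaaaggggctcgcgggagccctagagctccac
Cxcl2, chr5:90903649-90903898, plus strand: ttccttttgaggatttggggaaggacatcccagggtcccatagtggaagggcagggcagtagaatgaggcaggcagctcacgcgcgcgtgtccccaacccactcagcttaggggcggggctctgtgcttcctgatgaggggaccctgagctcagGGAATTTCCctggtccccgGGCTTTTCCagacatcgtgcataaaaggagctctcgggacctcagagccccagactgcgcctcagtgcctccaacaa
Nfkbia, chr12:55492648-55492897, minus strand: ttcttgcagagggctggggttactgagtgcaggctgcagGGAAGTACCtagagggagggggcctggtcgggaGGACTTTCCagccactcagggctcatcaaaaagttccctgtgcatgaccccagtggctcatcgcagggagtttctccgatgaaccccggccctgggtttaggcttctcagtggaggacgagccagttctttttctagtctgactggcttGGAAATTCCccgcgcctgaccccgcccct
Tnfaip3, chr10:19015411-19015660, minus strand: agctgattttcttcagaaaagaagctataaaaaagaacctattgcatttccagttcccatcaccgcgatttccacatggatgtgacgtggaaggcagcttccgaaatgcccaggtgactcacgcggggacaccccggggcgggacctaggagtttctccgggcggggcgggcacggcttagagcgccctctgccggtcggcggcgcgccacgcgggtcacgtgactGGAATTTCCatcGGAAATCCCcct

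Matches began 85 bases before the start in Irg1, 89 and 70 in Cxcl1, and 96 and 77 in Cxcl2. They began 211, 178 and 29 bases before it in Nfkbia and 24 and 12 in Tnfaip3. GGAATTTCC and GGAAATTCC, each the reverse complement of the other and each fitting both forms of the core, made up 1 match in each of the 5. A promoter was matched to 10129 of the 12918 genes tested, 1013 of them through an older symbol. The NF-kB core was found in 66 of 245 promoters (26.9%) of genes called at least 2-fold higher at 0.03 nM 2 h, in 24.2% of those of all 724 genes called higher, in 16.8% of those of genes called lower by any amount, and in 18.4% of all 10129. For the AP-1 motif TGANTCA, its own reverse, the shares in the same order were 7.35%, 5.8%, 5.1% and 4.52%, and for the cyclic AMP response element TGACGTCA, also its own reverse, they were 2.04%, 3.31%, 1.79% and 2.77%. The interferon response core GAAANNGAA, or TTCNNTTTC, stood in 5.71%, 8.84%, 4.08% and 6.41%. For these last 2 motifs the share was below that of all promoters among the 2-fold risers and above it among all risers. In the 5 promoters printed, no match to these other motifs overlapped an NF-kB match, Tnfaip3 had 1 AP-1 match and Nfkbia 1 interferon response match. These are counts of letters and not of bound sites.

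Total counts of the 4 libraries ran from 33179599 to 38351911. All 15 defining macrophage markers were detected, led by the lysozyme gene Lyz2, and their summed level was 32900 and 32700 CPM (reads scaled to a common library size, with edgeR's TMM factors) at 0.03 nM 2 h and 33800 and 31600 CPM in untreated cells. Summed markers of erythroid, mast, B, and T or NK cells were at 1.75 to 34.4 CPM in every library. Most of the T and NK cell sum was Cd4, at a mean of 32.9 CPM, and most of the B cell sum Cd22, at 20.2 CPM. At 0 counts in all 4 libraries were 5 of 11 T and NK, 3 of 10 erythroid, 3 of 10 mast and 1 of 10 B cell markers. They included the globin genes Hbb-b1 and Hbb-b2, the mast cell tryptase genes Tpsb2 and Tpsab1 and the T and NK cell genes Cd3d, Ncr1 and Nkg7. Dendritic cell markers summed to 251 and 331 CPM at 0.03 nM 2 h and to 196 and 224 CPM in untreated cells, most of it Bst2. Neutrophil markers summed to 122 and 124 CPM at 0.03 nM 2 h and to 100 and 96.1 CPM in untreated cells, most of it Csf3r, while the 15 stromal and endothelial markers followed the experiment, at 55.2 and 94.7 CPM at 0.03 nM 2 h against 53.9 and 99.9 CPM in untreated cells. In bulk RNA, fewer cells of a type and less RNA per cell cannot be told apart. In the 0.03 nM 2 h pair the difference between experiments, taken as log2 CPM in experiment 2 minus experiment 1, followed exonic length at Spearman rho = -0.617 across 10333 genes, against -0.0142 to 0.296 in the other 4 groups. Its SD was 0.301, against 0.185 to 0.228. Genes are not independent replicates, and the source of this trend was not tested.

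In all, 905 genes rose and 489 fell at 0.03 nM 2 h against untreated cells (edgeR quasi-likelihood test with a term for the experiment, Benjamini-Hochberg adjusted p below 0.05). These are 7.01% and 3.79% of the genes tested. Of them 300 rose and 37 fell by at least 2-fold. All 905 rises and all 489 falls had the same sign in both experiments, and 260 and 21 were past 2-fold in each. The calls were made on these same 2 experiments, which favours a shared sign, so this is not independent replication. Across the 10333 genes used for the length trend, called or not, 5983 shared their sign. Scaled by library totals in place of TMM, which moved the median of all genes by -0.07 on the log2 scale, 742 genes rose and 815 fell. The experiments weighed on different genes: the median change of genes under 1000 exonic bases was -0.06 in experiment 1 and 0.31 in experiment 2, and that of genes over 6000 bases was 0.07 and -0.35. With the length trend of each library as an offset, 1351 genes rose and 666 fell, among them 871 of the 905 and 454 of the 489. Leaving out the treated library of experiment 2 gave 1421 and 664, and leaving out that of experiment 1 gave 2058 and 2114. Leaving out the untreated library gave 515 and 200 for experiment 1, and 459 and 106 for experiment 2. Below, paired values are given in the order experiment 1, experiment 2, fold changes are log2 ± SE from the edgeR fit, and "treated" stands for 0.03 nM 2 h.

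**Figure D1:**
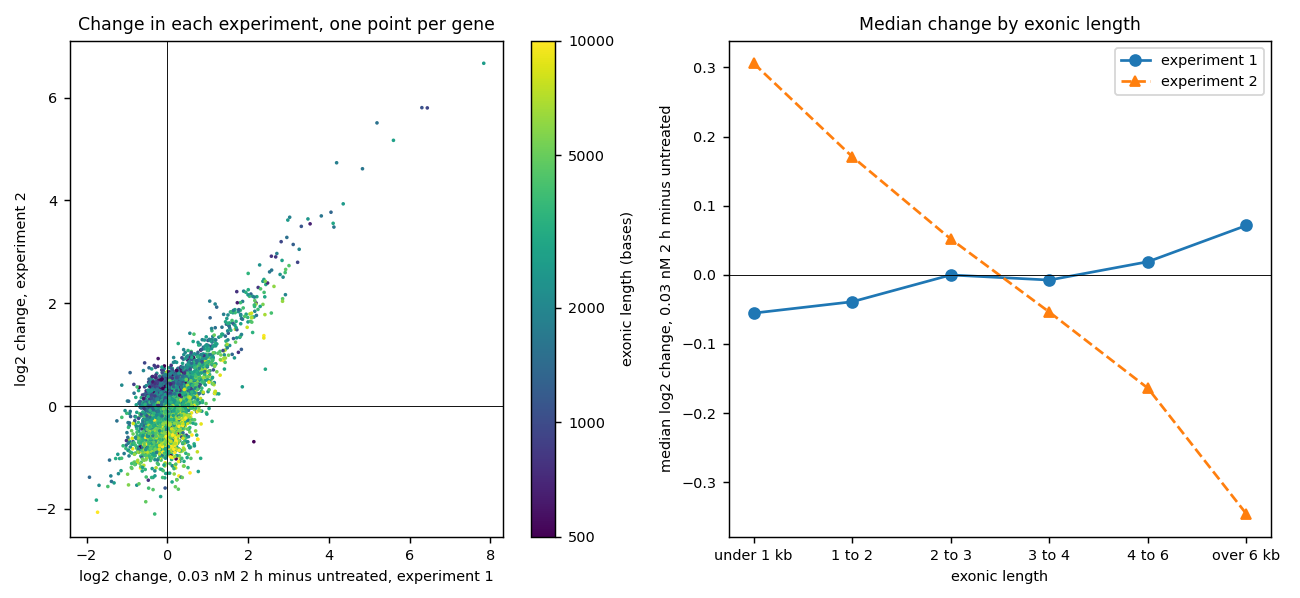
Left, log2 change of each of 10333 genes in experiment 1 (x axis) and experiment 2 (y axis), coloured by exonic length. Right, median log2 change by exonic length in each experiment; the line of experiment 2 falls to -0.35 over 6000 bases while that of experiment 1 ends at 0.07.

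The 15 largest rises included genes of chemokines, cytokines, receptors and feedback inhibitors. Irg1 (chromosome 14, 103446229 to 103455790 on mm9), whose enzyme makes itaconate from a citric acid cycle intermediate, had 305 and 353 CPM at 0.03 nM 2 h, against 1.29 and 3.42 CPM in untreated cells. Both treated libraries were far above both untreated ones, and on the log scale the experiments differed more in the untreated pair than in the treated pair. The fold change was 146 (7.19 ± 0.50; edgeR adjusted p = 8.12e-05). Gpr84 (chromosome 15, 103138666 to 103140869), a receptor for medium-chain fatty acids, stood at 79.2 and 92.2 CPM in treated cells, against 2.12 and 1.98 CPM in untreated cells, a fold change of 41.7. Socs3, an inhibitor of cytokine receptor signalling, had 118 and 133 CPM in treated cells, against 2.38 and 3.64 CPM in untreated cells. Clec4e, which encodes the receptor Mincle for mycobacterial and dead-cell glycolipids, had 143 and 149 CPM in treated cells, against 6.93 and 9.71 CPM in untreated cells. The groups did not overlap in any of the 15 largest rises, which with the treated libraries higher held for 23.6% of all genes tested, and all 15 were called in each of 19 alternative analyses. One of them, Cd69, encodes a lectin of activated leukocytes and had 34.9 and 33.1 CPM in treated cells, against 1.95 and 2.92 CPM in untreated cells. Per kilobase of exon, Actb, Mir5107, whose exon overlaps Cd74 on the same strand, and Cd14 gained most among the called genes. The actin gene Actb averaged 3710.1 RPKM (CPM per kilobase of exon) at 0.03 nM 2 h and 3087 RPKM in untreated cells, a change of 0.26 ± 0.07 that was called in 9 of the 19 alternatives. Of the 10 genes that gained most on that scale 5 were called in all 19, namely Cd14, Marcksl1, Tnfaip2, Sqstm1 and Tlr2. Marcksl1, a gene of the MARCKS family of actin regulators, averaged 418 RPKM at 0.03 nM 2 h and 68.3 RPKM in untreated cells. That gene rose 6.12-fold.

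**Figure D2:**
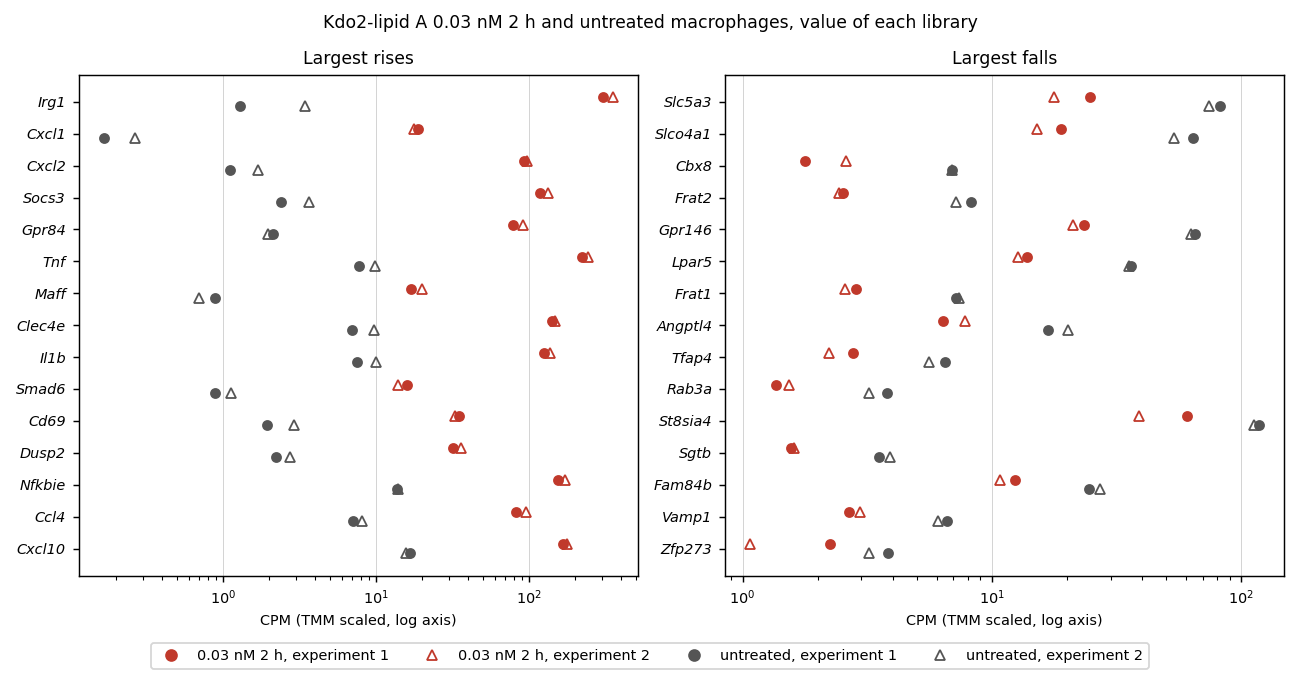
CPM of each library (x axis, log scale) for the 15 largest rises (left) and 15 largest falls (right), with 0.03 nM 2 h in red above untreated in grey, circles for experiment 1 and triangles for experiment 2. In each row the red points lie on one side of the grey points.

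NF-kB inhibitors, subunits and feedback regulators rose in 19 of 22 cases and fell in 0, with a list median of 1.66, where the median over all genes tested was -0.00162. The IkB alpha gene Nfkbia (chromosome 12, 56590396 to 56593634) had 382 and 401 CPM at 0.03 nM 2 h, against 66.1 and 65.7 CPM in untreated cells. The libraries varied little within each group, and the fold change was 5.94 (2.57 ± 0.10; edgeR adjusted p = 2.05e-07). Nfkbie, for IkB epsilon, had 154 and 174 CPM in treated cells, against 13.8 and 13.9 CPM in untreated cells, a change of 3.56 ± 0.14. Tnfaip3, which encodes the ubiquitin-editing enzyme A20, had 250.3 and 224 CPM in treated cells, against 32.8 and 35.5 CPM in untreated cells. Its partner gene Tnip1 rose by 1.78 ± 0.08, the TNF receptor adaptor gene Traf1 by 2.52 ± 0.13 and Tnfaip2 by 1.83 ± 0.08. The members not called were Rel, Cyld and Fam105b, which are named after their values were seen. Nfkbia and Tnfaip3, whose promoters are printed above, had NF-kB matches within 30 bases of the start.

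Of 12 CXC chemokine genes 8 rose and 0 fell, with a median of 1.05, and of 14 CC chemokine genes 7 rose and 0 fell, with a median of 1.26. The neutrophil attractants Cxcl1 (chromosome 5, 91320271 to 91322141) and Cxcl2 (chromosome 5, 91332925 to 91334964) were first among them. Cxcl1 had 19 and 17.6 CPM in treated cells, against 0.167 and 0.265 CPM in untreated cells. Cxcl2 had 92.4 and 97.1 CPM in treated cells, against 1.12 and 1.69 CPM in untreated cells. For both genes the groups were far apart in both experiments. Cxcl3 had 3.48 and 3.3 CPM in treated cells, against 0.191 and 0.169 CPM in untreated cells. Cxcl10, an attractant of T cells that interferon also induces, had 166 and 179 CPM in treated cells, against 16.6 and 15.8 CPM in untreated cells. The membrane-bound chemokine gene Cxcl16 changed less, by 0.95 ± 0.08, and its exons overlap those of Zmynd15 on the other strand. Of the CC genes, Ccl3, an attractant of monocytes and T cells, had 105 and 125 CPM in treated cells, against 17.6 and 16.6 CPM in untreated cells. Its neighbour in function Ccl4 had 82.5 and 95.5 CPM in treated cells, against 7.07 and 8.15 CPM in untreated cells. The monocyte attractant Ccl2 rose by 2.12 ± 0.20. Leaving out the treated library of experiment 2 left 4 of the 14 CC genes called.

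Among 24 interleukin and other cytokine genes 12 rose and 1 fell, Il16, which is named after its value was seen. Their median was 1.70. Tnf (chromosome 17, 35336336 to 35338941), an inflammatory cytokine released early by macrophages, had 222 and 243 CPM in treated cells, against 7.76 and 9.88 CPM in untreated cells, and changed by 4.73 ± 0.16 (edgeR adjusted p = 1.42e-07). Il1b, the pyrogenic cytokine cut to its active form by inflammasomes, had 125 and 138 CPM in treated cells, against 7.5 and 10.1 CPM in untreated cells. For neither gene did the groups overlap. Il12b and Il27 encode subunits of cytokines that act on T cells. Il12b had 4.68 and 3.8 CPM in treated cells, against 0.50 and 0.53 CPM in untreated cells. Il27 had 3.7 and 5.6 CPM in treated cells, against 0.595 and 1.04 CPM in untreated cells. Tnfsf9, the ligand of the T cell receptor 4-1BB, rose by 3.16 ± 0.14. Csf1, the gene of M-CSF itself, had 27.3 and 33.3 CPM in treated cells, against 6.38 and 10.7 CPM in untreated cells. Of 16 genes for growth factors and other secreted signals 3 rose and 1 fell. The risers were Pdgfb, Edn1 and Wnt6, and the faller Angptl4. Pdgfb, a growth factor for mesenchymal cells, had 59.1 and 66.8 CPM in treated cells, against 37.5 and 38.4 CPM in untreated cells.

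Of 20 FOS, JUN and ATF genes 8 rose and 1 fell, with a median of 0.17. Maff, a small MAF factor that lacks an activation domain, had 17 and 19.9 CPM in treated cells, against 0.881 and 0.699 CPM in untreated cells. The AP-1 subunit gene Junb had 378 and 397 CPM in treated cells, against 84.8 and 91.3 CPM in untreated cells. Fos had 137 and 171 CPM in treated cells, against 68.5 and 94.8 CPM in untreated cells, a change of 0.92 ± 0.09. In all 3 genes both treated libraries were above both untreated ones. Of 22 EGR, NR4A, IER and similar genes 13 rose and 0 fell, with a median of 0.69. The growth arrest gene Gadd45b rose by 2.13 ± 0.10, Myc by 1.93 ± 0.12 and the zinc finger factor gene Egr2 by 1.23 ± 0.14. The kinase gene Plk3, whose exons overlap those of Tctex1d4 on the other strand, rose by 1.37 ± 0.15. Of 16 genes for MAP kinase phosphatases and Sprouty-type inhibitors, which shut down growth factor and stress kinases, 10 rose and 0 fell, with a median of 1.05. Dusp2 had 31.8 and 36.3 CPM in treated cells, against 2.21 and 2.75 CPM in untreated cells. Dusp1 had 43.4 and 51.8 CPM in treated cells, against 9.65 and 14.4 CPM in untreated cells. Errfi1, an inhibitor of the EGF receptor, rose by 1.01 ± 0.09.

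Receptors were among the genes that moved both ways. Of 28 genes for TLR4, its adaptors and its kinases 6 rose and 1 fell, and the one that fell was Tlr4 itself, at 96.2 and 68.2 CPM in treated cells, against 119 and 133 CPM in untreated cells (-0.62 ± 0.14; edgeR adjusted p = 0.0166). Its level was lower in both treated libraries, more so in experiment 2. Irak2, a kinase of the MyD88 complex, had 175 and 179.6 CPM in treated cells, against 53.9 and 57.4 CPM in untreated cells. The co-receptor gene Cd14 had 1007 and 1157 CPM in treated cells, against 543 and 524 CPM in untreated cells. Traf3 rose by 1.24 ± 0.09, the kinase gene Ikbke by 0.83 ± 0.08, the inhibitory kinase gene Irak3 by 0.64 ± 0.09 and Myd88 by 0.43 ± 0.08. Other pattern recognition receptors rose in 11 of 26 cases and fell in 0, with a median of 0.24. The lipoprotein receptor gene Tlr2 had 801 and 835 CPM in treated cells, against 153 and 151 CPM in untreated cells. Its partner gene Tlr1 rose by 1.04 ± 0.09. The inflammasome sensor gene Nlrp3 had 417 and 384 CPM in treated cells, against 79.2 and 83 CPM in untreated cells, and the muramyl dipeptide receptor gene Nod2 rose by 2.49 ± 0.25.

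G protein-coupled receptor genes of phagocytes rose in 17 of 38 cases and fell in 6, with a median of 0.16. The adenosine receptor genes Adora2a and Adora2b, whose products raise cyclic AMP, were among the risers. Adora2a had 9.77 and 10.4 CPM in treated cells, against 1.19 and 0.795 CPM in untreated cells. Adora2b had 14.8 and 18.4 CPM in treated cells, against 1.76 and 1.4 CPM in untreated cells. They changed by 3.33 ± 0.16 and 3.38 ± 0.20. Gpr146, a G protein-coupled receptor gene, had 23.3 and 21.2 CPM in treated cells, against 65 and 62.9 CPM in untreated cells. Lpar5, a lysophosphatidic acid receptor gene, had 13.8 and 12.8 CPM in treated cells, against 36.2 and 35.4 CPM in untreated cells. Cxcr4, the receptor of the marrow chemokine CXCL12, had 88.8 and 75.7 CPM in treated cells, against 172 and 148 CPM in untreated cells. Gpr146, Lpar5 and Cxcr4 were lower in both experiments, without overlap between groups. Among 24 genes for co-stimulation and adhesion 12 rose and 0 fell, with a median of 0.53. Icosl, the ligand of ICOS on T cells, had 161 and 164 CPM in treated cells, against 22.4 and 23 CPM in untreated cells. Icam1, the leukocyte adhesion receptor gene, had 567 and 589.7 CPM in treated cells, against 110.0 and 109.7 CPM in untreated cells. The gene of the T cell help receptor Cd40 rose by 2.85 ± 0.17. Among 24 scavenger, Fc and C-type lectin receptors 5 rose and 1 fell, with Clec5a at 1.71 ± 0.11 and Msr1 at 1.01 ± 0.08.

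**Figure D3:**
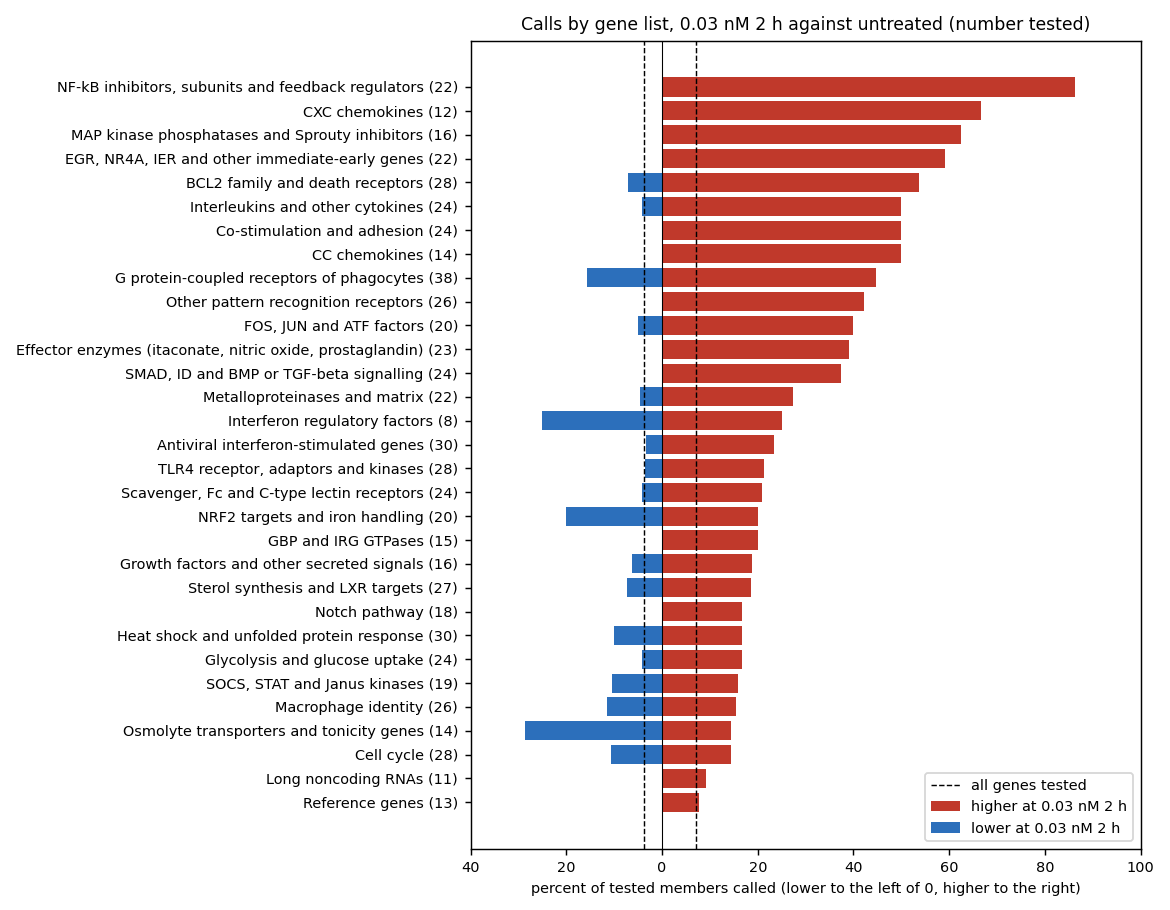
Percent of the tested members of each gene list called lower (left of 0) or higher (right of 0) at 0.03 nM 2 h against untreated cells, with the number tested in brackets and dashed lines at the shares of all genes tested, 3.79% and 7.01%. NF-kB regulators reach 86.4% higher, and reference genes 7.69%.

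SMAD and ID genes belong to signalling by bone morphogenetic proteins (BMP) and TGF-beta: ID proteins block helix-loop-helix factors, and SMAD6 and SMAD7 inhibit the receptors. Of 24 genes 9 rose and 0 fell, with a median of 0.24. Id3 (chromosome 4, 135699737 to 135701307) had 158 and 179.8 CPM in treated cells, against 22.4 and 19.6 CPM in untreated cells. Id1 had 5.12 and 6.84 CPM in treated cells, against 0.50 and 0.94 CPM in untreated cells. Id2 had 145 and 139.7 CPM in treated cells, against 47.5 and 45.5 CPM in untreated cells. Smad6 (chromosome 9, 63800883 to 63869866) had 16 and 13.9 CPM in treated cells, against 0.881 and 1.13 CPM in untreated cells (3.89 ± 0.23; edgeR adjusted p = 1.53e-06). For each of these the treated libraries of both experiments were well above the untreated ones. Skil, a repressor of SMAD proteins, rose by 2.11 ± 0.16 and Smad7 by 0.80 ± 0.14. Among 18 Notch pathway genes 3 rose and 0 fell. The ligand gene Jag1 had 40.8 and 32 CPM in treated cells, against 7.88 and 8.1 CPM in untreated cells, and the Notch effector gene Rbpj rose by 0.98 ± 0.10.

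Genes of effector enzymes, such as those that make itaconate, nitric oxide and prostaglandins, rose in 9 of 23 cases and fell in 0, with a median of 0.73. Ch25h, which makes 25-hydroxycholesterol, had 5.88 and 6.65 CPM in treated cells, against 0.50 and 0.627 CPM in untreated cells. The mitochondrial superoxide dismutase gene Sod2 had 259 and 262 CPM in treated cells, against 63.2 and 59.7 CPM in untreated cells. Gch1, for the first enzyme of the nitric oxide synthase cofactor, rose by 1.37 ± 0.13. The BCL2 family and death receptor list rose in 15 of 28 cases and fell in 2. The anti-apoptotic gene Bcl2a1d had 23.5 and 30.0 CPM in treated cells, against 3.62 and 3.98 CPM in untreated cells. Bcl2a1a had 4.84 and 5.74 CPM in treated cells, against 0.191 and 0.337 CPM in untreated cells. Members of this family are near-identical, so their counts are uncertain one by one. The inhibitor of apoptosis gene Birc3 rose by 1.71 ± 0.10, the death receptor gene Fas by 1.60 ± 0.11 and the NOD kinase gene Ripk2 by 1.61 ± 0.12. Of 22 metalloproteinase and matrix genes 6 rose and 1 fell. Mmp14, a membrane-bound collagenase gene, had 84.4 and 97.8 CPM in treated cells, against 21.1 and 31.5 CPM in untreated cells.

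Interferon-stimulated genes gave a result that depended on the experiment term. Of 30 antiviral genes 7 rose and 1 fell in the fit with that term, but 0 rose and 1 fell without it, and 2 rose and 1 fell when the treated library of experiment 2 was left out. With the length offset 1 rose and 1 fell. The median was 0.54 in experiment 1 and 0.20 in experiment 2. Mx1, an antiviral GTPase gene, had 109 and 123 CPM in treated cells, against 47.4 and 70.1 CPM in untreated cells, so that in both groups experiment 2 stood higher and the untreated library of experiment 2 lay closer to the treated ones. Rsad2, for the antiviral enzyme viperin, had 162 and 171 CPM in treated cells, against 78.5 and 112 CPM in untreated cells. The edgeR adjusted p of Mx1 and Rsad2 was 0.0188 and 0.025 with the experiment term and 0.273 and 0.274 without it. Trim25, a ubiquitin ligase gene, was the one that fell (-0.39 ± 0.09). In the GBP and IRG list, large GTPases that attack vacuoles of pathogens, 3 of 15 rose. Gbp5 had 52 and 51.5 CPM in treated cells, against 11.1 and 11.8 CPM in untreated cells, while Gbp2 and Gbp3 rose by 0.70 ± 0.11 and 0.75 ± 0.13, with shared sequence between these genes. Of 8 interferon regulatory factors 2 rose and 2 fell: Irf1 changed by 1.18 ± 0.09 and Irf5 by 0.59 ± 0.07, and Irf8 and Irf4 by -0.48 ± 0.08 and -0.81 ± 0.21. Irf8, a factor of the macrophage lineage, had 192 and 202 CPM in treated cells, against 276 and 271 CPM in untreated cells.

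The largest falls included membrane transporters, receptors and regulatory genes. Slc5a3 (chromosome 16, 92058567 to 92087718), the myo-inositol transporter gene, had 24.7 and 17.7 CPM in treated cells, against 82.1 and 74.3 CPM in untreated cells. Slco4a1 (chromosome 2, 180195683 to 180209557), an organic anion transporter gene, had 19 and 15.1 CPM in treated cells, against 64.3 and 53.9 CPM in untreated cells. These changed by -1.90 ± 0.09 and -1.80 ± 0.10 (edgeR adjusted p = 4.55e-07 and 1.37e-06). The exons of Slc5a3 overlap those of Mrps6 on the same strand, and Mrps6 had 17.5 and 21.2 CPM in treated cells, against 35.3 and 33.9 CPM in untreated cells. The betaine transporter gene Slc6a12 had 12 and 13.7 CPM in treated cells, against 28.3 and 26.3 CPM in untreated cells. Of 14 osmolyte transporter and tonicity genes 4 fell and 2 rose, with a median of -0.22; the risers were Slc4a7 and Sgk1. The other large falls included Cbx8, a Polycomb subunit gene, at 1.78 and 2.61 CPM in treated cells, against 6.93 and 6.89 CPM in untreated cells. The products of Frat2 and Frat1 bind the kinase GSK3. Frat2 had 2.52 and 2.44 CPM in treated cells, against 8.26 and 7.21 CPM in untreated cells. Frat1 had 2.85 and 2.58 CPM in treated cells, against 7.19 and 7.38 CPM in untreated cells. Angptl4, an inhibitor of lipoprotein lipase, had 6.35 and 7.82 CPM in treated cells, against 16.9 and 20.1 CPM in untreated cells. In all 15 largest falls the groups did not overlap, which with the treated libraries lower held for 23.3% of all genes tested, and 12 of the 15 were called in each of 19 alternatives. Rab3a was called in 17, Sgtb in 18 and Zfp273 in 10. Zfp273, a zinc finger gene, had 2.24 and 1.08 CPM in treated cells, against 3.83 and 3.23 CPM in untreated cells. Tfap4, a helix-loop-helix factor gene, had 2.76 and 2.22 CPM in treated cells, against 6.48 and 5.62 CPM in untreated cells. Vamp1, for a vesicle fusion protein, had 2.68 and 2.97 CPM in treated cells, against 6.6 and 6.07 CPM in untreated cells. By RPKM the largest drop among called genes was in Txnip, an inhibitor of thioredoxin and glucose uptake whose exons overlap Gm15441 on the other strand. It averaged 166 RPKM at 0.03 nM 2 h and 281 RPKM in untreated cells. Slc40a1, the iron exporter gene, averaged 75.1 RPKM in treated and 125 RPKM in untreated cells.

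Of 26 macrophage identity genes 4 rose, 3 fell and 19 were not called, with a median of 0.03. The risers were Cd14, Cebpb, Sfpi1 and Aif1, and the fallers included Irf8 and Cebpa. Sfpi1, which encodes the lineage factor PU.1, had 439 and 499 CPM in treated cells, against 300.2 and 338 CPM in untreated cells. Sfpi1 changed 1.47-fold, with the same sign in both experiments. Of 24 glycolysis genes 4 rose and 1 fell. The hexose transporter gene Slc2a6 rose by 1.64 ± 0.09, the glucose transporter gene Slc2a1 by 0.62 ± 0.07 and Hif1a by 0.52 ± 0.10. Of 27 sterol and LXR genes 5 rose and 2 fell, among them the LXR alpha gene Nr1h3, at 68.9 and 85.3 CPM in treated cells, against 24.4 and 30.9 CPM in untreated cells, and the cholesterol exporter gene Abcg1, which changed by -0.40 ± 0.08. Of 20 NRF2 target and iron genes 4 rose and 4 fell. The NRF2 gene itself, Nfe2l2, had 522 and 517 CPM in treated cells, against 268 and 262 CPM in untreated cells. Of 30 heat shock and unfolded protein response genes 5 rose and 3 fell, led by Herpud1 at 1.17 ± 0.08. Of 28 cell cycle genes 4 rose and 3 fell: the inhibitor genes Cdkn1a and Cdkn1b changed by 1.53 ± 0.12 and -0.69 ± 0.09, in opposite directions. With the length offset 8 cell cycle genes fell and 5 rose. Among 13 reference genes, Actb alone was called, higher. Under scaling by library totals 0 reference genes were called higher and 1 lower, and with the length offset 2 higher and 1 lower. In the neutrophil, dendritic cell and stromal marker lists 1 gene each rose, of 12, 11 and 14 tested. They were Csf3r (0.49 ± 0.07), Bst2 (0.53 ± 0.10) and Kdr (0.76 ± 0.14). The shares were 8.33%, 9.09% and 7.14%, near the 7.01% of all genes tested. Without the experiment term 1, 0 and 0 genes of these lists were called higher. Bst2 is also in the antiviral list. None of the 14 tested markers of B, T or NK, erythroid and mast cells was called.

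Of 19 SOCS, STAT and Janus kinase genes 3 rose and 2 fell. Cish, a cytokine-induced inhibitor gene, had 3.45 and 3.25 CPM in treated cells, against 1.14 and 1.06 CPM in untreated cells. The kinase gene Jak2 had 114 and 97.9 CPM in treated cells, against 50.7 and 57.4 CPM in untreated cells. Socs6 and Stat5b changed by -0.58 ± 0.09 and -0.35 ± 0.09. Of 212 solute carrier genes 23 rose and 19 fell, shares of 10.8% and 8.96%. Of 11 long noncoding RNAs Neat1 alone was called, at 695 and 891 CPM in treated cells, against 461 and 567 CPM in untreated cells. Of 76 mitochondrial ribosomal protein genes 2 rose and 1 fell, of 39 proteasome genes 2 rose and 0 fell, and of 19 histone genes 1 rose and 0 fell.

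Large gene families of short transcripts showed the length trend. The 82 cytosolic ribosomal protein genes, with a median exonic length of 706.5 bases, changed by a median of -0.06 in experiment 1 and of 0.34 in experiment 2. Oxidative phosphorylation subunit genes, at 651 bases, changed by -0.07 and 0.30. In neither list was a gene called in the edgeR fit. The 372 zinc finger genes are longer, at 3504 bases, and changed by -0.08 and -0.22, with 16 called higher and 20 lower. With an offset for length the ribosomal median moved from 0.15 to 0.03 and that of the zinc finger genes only from -0.15 to -0.11. Among called genes with a mean log2 CPM of 1 or more, the experiments differed most in Irg1, with log2 changes of 7.83 and 6.67. Hivep3 was also among the genes that differed most, at 33.3 and 22.3 CPM in treated cells, against 6.31 and 8.89 CPM in untreated cells. Another was Zbtb38, whose exons overlap E030011O05Rik on the same strand, at 16 and 8.35 CPM in treated cells, against 22.1 and 25.4 CPM in untreated cells. Foxo3, a growth-inhibitory transcription factor gene, had 31.8 and 18 CPM in treated cells, against 40.6 and 47.2 CPM in untreated cells. For Hivep3, Zbtb38 and Foxo3 the treated library of experiment 2 was the lower. In the length trend long transcripts were lower in that library. Whether the trend accounts for the differences in these genes was not tested. With the length offset the change was 2.02 for Hivep3, -0.93 for Zbtb38 and -0.83 for Foxo3 (edgeR adjusted p = 4.18e-07, 0.0754 and 0.146).

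**Figure D4:**
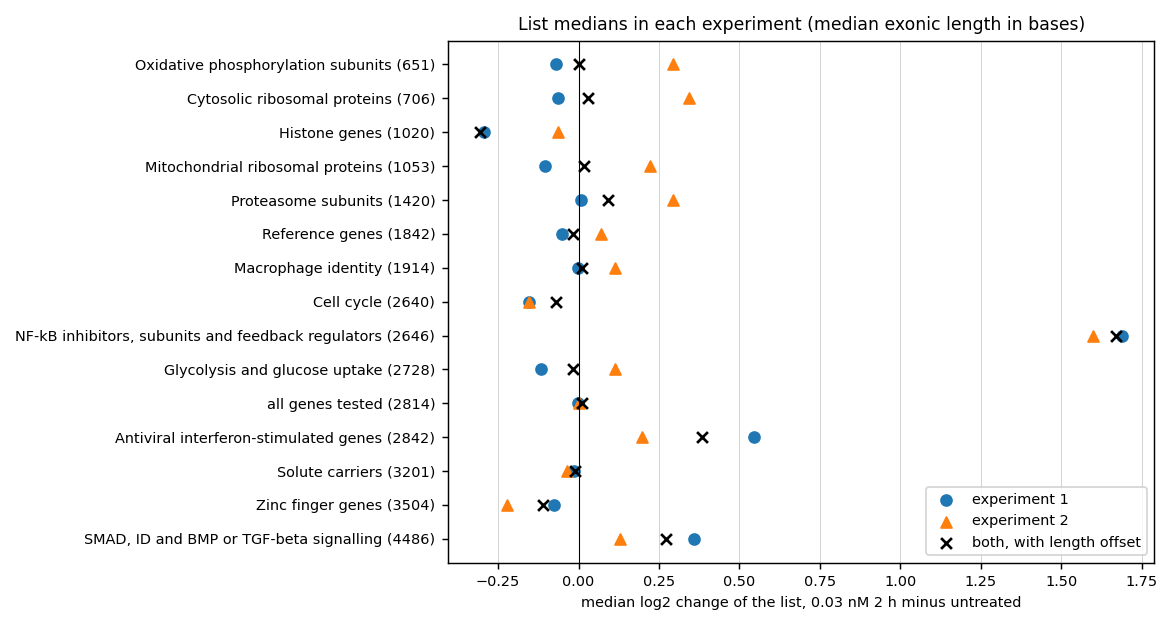
Median log2 change of each list at 0.03 nM 2 h minus untreated (x axis) in experiment 1 (circles), in experiment 2 (triangles) and over both with the length offset (crosses), lists ordered from short to long transcripts with the median exonic length in brackets. Ribosomal genes are at -0.06 in experiment 1 and 0.34 in experiment 2, whereas NF-kB regulators are at 1.69 and 1.60.

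Against 0.03 nM at 1 h, the same dose at 2 h had 488 genes higher and 233 lower, 3.78% and 1.8% of those tested (edgeR, adjusted p below 0.05). Of these 114 and 8 passed 2-fold. Under scaling by library totals 382 were higher and 363 lower. This comparison does not use untreated cells, and it shares the 0.03 nM 2 h libraries with the one above. Irg1 had 305 and 353 CPM at 2 h, against 17.7 and 57 CPM at 1 h. The nicotinic acid receptor gene Niacr1 had 11 and 11 CPM at 2 h, against 1.64 and 2.18 CPM at 1 h. Adora2a had 9.77 and 10.4 CPM at 2 h, against 1.98 and 2.3 CPM at 1 h. Gpr84 had 79.2 and 92.2 CPM at 2 h, against 14.7 and 23.6 CPM at 1 h. In each of these the 2 h libraries were above both 1 h libraries. Phldb1, for a protein linking microtubules to the cell cortex, differed by 1.90 ± 0.08 (edgeR adjusted p = 5.75e-06). NF-kB regulators were higher at 2 h in 14 of 22 cases and lower in 1, and effector enzymes higher in 8 of 23 and lower in 0. Cxcl1 differed less, at 19 and 17.6 CPM at 2 h against 12.8 and 12 CPM at 1 h, and the call for Dusp2 was not made (0.09 ± 0.13). Lower at 2 h were immediate-early genes, 5 of 22, with 4 of 22 higher. Egr1 had 7.47 and 8.61 CPM at 2 h, against 17.3 and 22.8 CPM at 1 h. Nr4a1 had 19.5 and 18.8 CPM at 2 h, against 33.4 and 46.2 CPM at 1 h. Of the SMAD list, Smad7 had 4.65 and 5.09 CPM at 2 h, against 12.6 and 13.3 CPM at 1 h. All 3 genes were still higher at 2 h than in untreated cells, where the libraries had 4.19 and 5.16 CPM of Egr1, 8.91 and 9.64 CPM of Nr4a1 and 2.71 and 2.89 CPM of Smad7. Of the 15 largest rises against untreated cells, 11 were higher at 2 h than at 1 h and 0 lower. These 15 were picked in part on the same 2 h libraries, which favours higher values at 2 h. In experiment 1, leaving out the 0.03 nM 2 h library gave 3991 calls here and leaving out the 0.03 nM 1 h library gave 249. In experiment 2 the same gave 1178 and 407.

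Against 10 nM at 2 h, the low dose had 3573 genes higher and 3386 lower, 27.7% and 26.2% of those tested (edgeR, adjusted p below 0.05), with 1380 and 1417 past 2-fold. Scaled by library totals 7716 were higher and 1776 lower, and the median over all genes moved by 0.49 on the log2 scale. Of the calls, 923 changed direction with that scaling, the largest of them 0.488 in size. The counts include such calls, and the single genes described as higher or lower here differ by more than the shift. Genes of inflammatory mediators were among those lower at the low dose. Cxcl1 had 19 and 17.6 CPM at 0.03 nM, against 267 and 249.9 CPM at 10 nM. Tnf had 222 and 243 CPM at 0.03 nM, against 1855 and 1777 CPM at 10 nM. Il12b had 4.68 and 3.8 CPM at 0.03 nM, against 349 and 367 CPM at 10 nM. The prostaglandin synthase gene Ptgs2 had 6.92 and 5.45 CPM at 0.03 nM, against 663 and 749.6 CPM at 10 nM, and the collagenase gene Mmp13 10.1 and 9.64 CPM at 0.03 nM, against 854 and 1039 CPM at 10 nM. Of 30 antiviral interferon-stimulated genes 29 were lower, 27 under scaling by totals, and of 22 NF-kB regulators 20 were lower under either scaling. Mx1 had 109 and 123 CPM at 0.03 nM, against 1754 and 2072 CPM at 10 nM. Icosl was 1 of 5 co-stimulation genes of 24 that were not called lower, at 161 and 164 CPM at 0.03 nM, against 156 and 156 CPM at 10 nM, with a difference of 0.06 ± 0.10 that did not pass (edgeR adjusted p = 0.639). The difference of Myc, -0.28 ± 0.11, did not pass either (edgeR adjusted p = 0.0545).

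Other genes were higher at the low dose than at the high dose. These included some of the SMAD and ID genes that rose against untreated cells. Of that list of 24, 7 were higher and 8 lower at the low dose, or 12 and 2 under scaling by totals. Over all 12918 genes tested, 27.7% were higher and 26.2% lower, or 7716 and 1776 genes under scaling by totals. Id3 had 158 and 179.8 CPM at 0.03 nM 2 h, against 39.5 and 37.2 CPM at 10 nM 2 h and 22.4 and 19.6 CPM in untreated cells. Smad6 had 16 and 13.9 CPM at 0.03 nM, against 2.0 and 1.5 CPM at 10 nM, and Id1 5.12 and 6.84 CPM at 0.03 nM, against 1.28 and 1.37 CPM at 10 nM. These differences were 2.14 ± 0.12, 3.08 ± 0.22 and 2.16 ± 0.22 (edgeR adjusted p = 1.06e-07, 8.84e-07 and 1.3e-05). In all 3 genes both 10 nM libraries lay below both low-dose libraries and above both untreated ones. Untreated cells had 0.881 and 1.13 CPM of Smad6 and 0.50 and 0.94 CPM of Id1. Id2 and Skil were not higher at the low dose: Id2 had 145 and 139.7 CPM at 0.03 nM, against 200.5 and 195 CPM at 10 nM, and Skil 433 and 322 CPM at 0.03 nM, against 525 and 571 CPM at 10 nM. The difference of Id2 (-0.47 ± 0.08) is smaller than the shift between scalings. Bmf, for a pro-apoptotic BCL2 family protein, had 32.3 and 26.4 CPM at 0.03 nM, against 0.788 and 1.13 CPM at 10 nM, and Cnr2, the cannabinoid receptor gene, 29.9 and 23 CPM at 0.03 nM, against 0.821 and 1.13 CPM at 10 nM. Untreated cells had 57.2 and 56.4 CPM of Bmf and 38.8 and 36.8 CPM of Cnr2, so the low-dose level of both genes lay between the others. Of the 372 zinc finger genes 234 were higher at the low dose and 44 lower, or 301 and 20 under scaling by totals. Of the 15 largest falls against untreated cells, 10 were higher and 5 lower at the low dose than at 10 nM, Slc5a3 and Slco4a1 being among the 5. These 15 were picked in part on the same low-dose libraries, which favours lower values at the low dose.

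**Figure D5:**
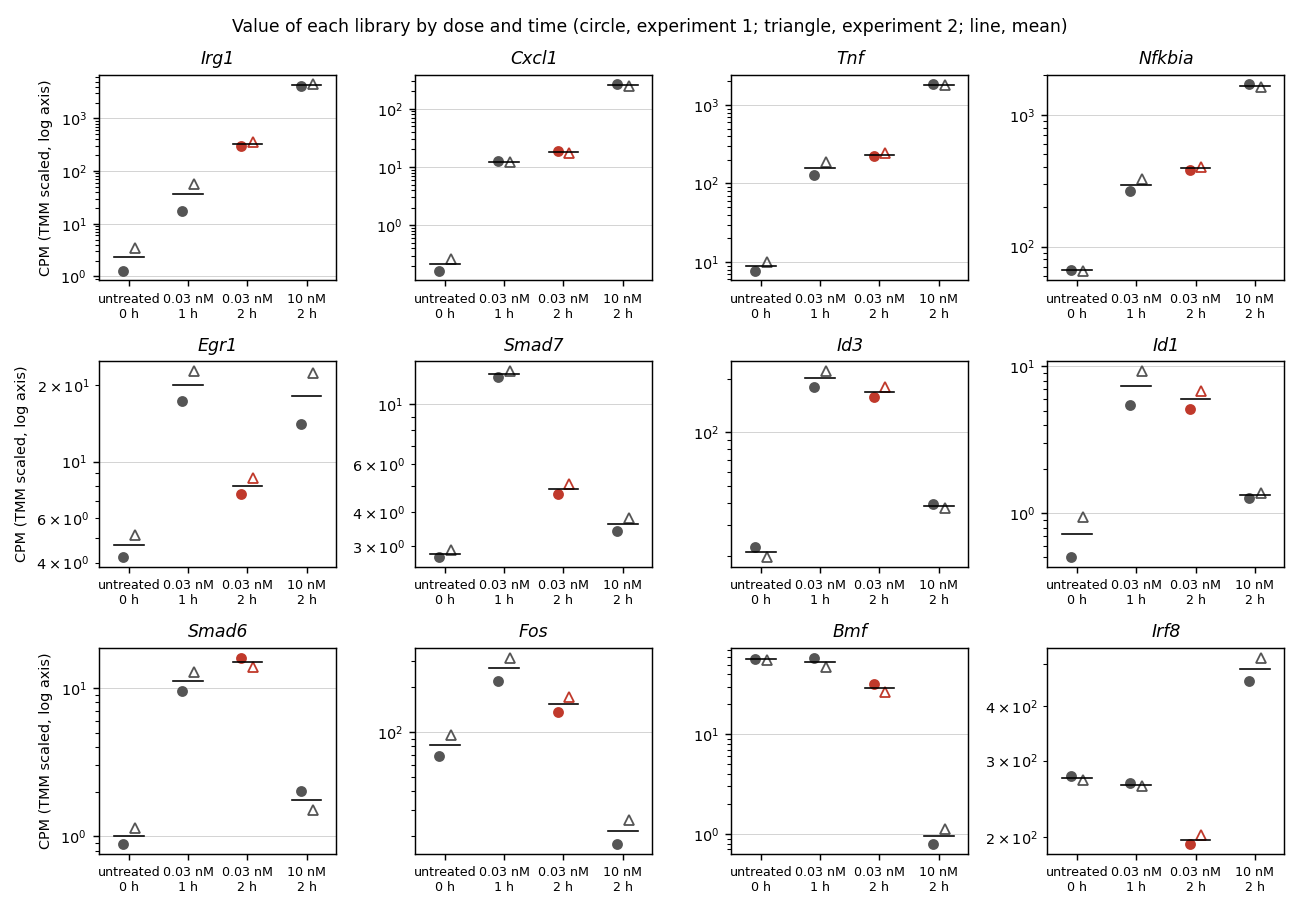
CPM of each library (y axis, log scale) for 12 genes in untreated cells, at 0.03 nM for 1 h and 2 h, and at 10 nM for 2 h, with circles for experiment 1, triangles for experiment 2 and a line at the mean, 0.03 nM 2 h in red. Id3, Id1 and Smad6 are higher at 0.03 nM 2 h than at 10 nM 2 h, while Irg1, Cxcl1, Tnf and Nfkbia are lower.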

How the data were processed

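Polyadenylated RNA of mouse bone-marrow-derived macrophages was sequenced on a NextSeq 500 after NEBNext Ultra Directional library preparation, per the labels' protocols. The deposited table holds raw counts per gene over exons, and a second deposited table holds the authors' regularised log2 (rlog) values of the same libraries, per the file headers. The submitters' processing notes name the mm9 genome and, with no roles, TopHat2 2.0.11, DESeq2, bcl2fastq 2.15.0.4 and featureCounts 1.4.5-p1. The strand setting is not given in the sources used here, so reads of opposite-strand overlapping genes cannot be told apart. Gene positions are mm9, from the count table, and promoters are RefSeq on GRCm38.p6.

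The counts went into edgeR 4.0.16 under R 4.3.3. Low genes were removed with filterByExpr over 5 groups, libraries were scaled by TMM, and 1 robust quasi-likelihood model with a mean per group and a term for the experiment was fitted to all 10 libraries (4 residual degrees of freedom), with Benjamini-Hochberg adjustment over 12918 genes. SE is the log2 fold change divided by the square root of the F statistic. The experiment term was used because every library is labelled as experiment 1 or 2, both experiments hold all 5 groups, and the comparison pairs libraries by that number. Deviations from group means correlated between groups at -0.106 to 0.472 (median 0.272; 7 of 10 pairs above 0.1). The pairs compared here were all under 0.1: 0.03 nM 2 h correlated at -0.0449 with untreated, 0.0776 with 0.03 nM 1 h and -0.106 with 10 nM 2 h. With 2 libraries per group, p-values measure the spread that remains between the 2 experiments after the experiment term, estimated over all 10 libraries. RPKM were computed from the scaled counts and the exonic length in the table. The pipeline was tested on simulated data with 200 changed genes.

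The comparison and the 45 gene lists were chosen with earlier results of these data known. Named genes are the 15 largest rises and falls of called genes whose mean log2 CPM was 1 or more and whose sign was shared by the experiments, the 10 largest rises and falls in RPKM, the 6 whose experiments differed most, in each list the 6 tested genes of smallest p (all called where 8 or fewer were called, all tested where 12 or fewer were tested), and the 8 largest differences each way in the other 2 comparisons. Alternatives were DESeq2 1.42.0 size factors, library totals, 2 other filters, DESeq2, limma 3.58.1 on the rlog values, no experiment term, an offset for the trend with log2 exonic length of each library (lowess, span 0.3), only the groups compared, and each library left out. Some genes that the rule names are not reported here.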

Additional observations from a re-analysis of the deposited data

Results flagged for a closer look

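The search covered the named genes reported here that were called at 0.03 nM 2 h with a mean log2 CPM of 1 or more. Other called genes were not searched, so the counts below are not counts over all calls. In 8 of the genes searched, the change against untreated cells had the opposite sign at 10 nM 2 h. The change was at least 0.2 on the log2 scale each way, and the difference between doses itself passed in edgeR. Both changes use the same untreated libraries, and the difference between doses does not. Changes against untreated cells are given as differences of mean log2 CPM, first at the low dose and then at the high dose. In 5 of them the low dose was above untreated cells and the high dose below. Fos, the AP-1 subunit gene, was 2.85 higher on the log2 scale at 0.03 nM than at 10 nM (0.925 at 0.03 nM and -1.93 at 10 nM against untreated; edgeR adjusted p = 8.33e-09). Plk3 differed by 2.22 (1.36 and -0.822), the cyclin gene Ccnd1 by 0.998 (0.656 and -0.339) and the growth factor gene Pdgfb by 0.949 (0.724 and -0.223). The nuclear noncoding RNA Neat1 differed in the same sense, by 0.878 (0.623 and -0.258). In the other 3 the low dose was below untreated cells and the high dose above. Irf8 differed by -1.31 (-0.475 and 0.832), the ubiquitin ligase gene Trim25 by -1.49 (-0.389 and 1.1) and Stat5b by -0.841 (-0.358 and 0.486). Of the genes searched, 1 moved in opposite senses with time, namely Arrdc3, an arrestin-like regulator of receptors. Arrdc3 differed by -0.855 at 0.03 nM 2 h from 0.03 nM 1 h (-0.592 at 2 h and 0.259 at 1 h against untreated, edgeR adjusted p = 0.00266). Of these 9, the differences of Ccnd1, Pdgfb, Neat1, Stat5b and Arrdc3 were under 1 on the log2 scale, and scaling by library totals moved the median difference between the doses over all genes by 0.488.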

How the results depend on the processing

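Leaving out each library in turn gave 565 to 4172 genes changed against untreated cells, where all libraries gave 1394. The range was 459 to 2058 for rises (905 with all) and 106 to 2114 for falls (489 with all). Against 0.03 nM 1 h the range was 249 to 3991 (721 with all). In the first comparison the lowest count came without the untreated library of experiment 2 and the highest without the 0.03 nM 2 h library of experiment 1. A group then has 1 library, which is assumed to vary like the others. Scaled by library totals, 815 genes fell. The length offset gave 1244 genes against 0.03 nM 1 h, and only the groups compared gave 386. The cause of these shifts was not tested. Without the replicate block for the experiment 1268 genes changed against untreated cells, 660 against 0.03 nM 1 h and 6827 against 10 nM 2 h. With the length offset and no block, an alternative chosen after seeing the data, 1655 changed. DESeq2 called 1367 and limma on the rlog values 1395. No called gene turned its direction in the comparison with untreated cells under any alternative. Scaling by totals turned 923 calls against 10 nM 2 h. Of 905 rises and 489 falls, 393 and 92 were called in each of 19 alternatives. Of 233 named genes called, 158 to 232 were called in each alternative. Totals were 33179599 to 42167096 counts per library.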
